A study of Mus musculus with 6 samples.

Results

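The expression of 10 genes of H3K9 demethylation and of heterochromatin maintenance was measured in splenic regulatory T cells (Treg). The genes were taken by symbol from the 29199 genes of the deposited table: 5 H3K9 demethylases (Kdm3a, Kdm3b, Kdm4a, Kdm4b and Kdm4c), 2 components of the HUSH complex (Mphosph8 and Pphln1), and Atrx, Daxx and Morc3. All 10 were detected in every library and all 10 passed the filter on low counts, as did 18321 genes in total. Total RNA was sequenced from 6 libraries, 3 of Treg with wild-type (WT) conventional CD4+ T cells (Tconv) and 3 of Treg with HP1α KO Tconv. In both groups, lethally irradiated B6 hosts received equal parts of B6 and semi-allogeneic B6D2F1 bone marrow, depleted of T and NK cells, and ex vivo expanded Treg together with naive Tconv. The WT and mutant littermates of the study were 6 to 12 weeks old, and its sequencing used males. The Treg of both groups were WT cells from B6 mice carrying a Foxp3-Thy1.1 reporter, expanded with 500 IU/mL IL-2, 0.1 ng/mL TGFβ and anti-CD3/CD28 beads for 3 days before rest. Per the labels, what differed was the Tconv: HP1α KO Tconv came from mice with a loxP-flanked Hp1a allele deleted through CMV-cre, a driver that deletes the allele in the whole animal, on a mixed genetic background, and WT Tconv came from control littermates. Treg were sorted 3 weeks after the graft by their Thy1.1 among CD4+ cells that carried CD45.2 and H-2Kb but neither CD45.1 nor H-2Kd, so they had been cultured, transferred and recovered before the measurement. The labels do not say whether the libraries of a group came from separate mice, so p-values measure only the spread between these samples, which may be technical.

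Methylation of lysine 9 of histone H3 (H3K9) marks heterochromatin and is bound by HP1 proteins. The KDM3 enzymes remove lower methylation states of H3K9 and the KDM4 enzymes remove its higher states. HUSH binds methylated H3K9 and brings the methyltransferase SETDB1 to retroelements, whereas ATRX and DAXX deposit the histone variant H3.3 at repeats. MORC3 is a nuclear ATPase found with DAXX in PML bodies. In T cells, H3K9 methylation is known to help keep lineage-inappropriate genes silent.

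The promoters of Atrx, Morc3 and Daxx are shown because these were the genes of a shared nuclear compartment whose groups of libraries did not overlap. RefSeq promoter windows, given on GRCm38.p6, were used for 8 of the 10 genes, all but Kdm3b and Kdm4b. They reached from 250 bases before to 50 bases after each start. The 150 bases just upstream of a start are printed, 5′ to 3′ on the strand of the gene. Capitals mark 4 motifs, searched on both strands. They are the GC box with the letters GGGCGG, the box named for its own letters CCAAT, the ETS factor motif with the letters CCGGAAG, and the NRF1 motif with the letters GCGCANGC. Daxx had several annotated starts and the most upstream one is shown.
Atrx, chrX:105929373-105929522, minus strand: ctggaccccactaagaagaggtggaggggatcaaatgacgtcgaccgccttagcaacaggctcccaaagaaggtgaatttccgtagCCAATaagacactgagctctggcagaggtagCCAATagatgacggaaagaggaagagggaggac
Morc3, chr16:93831971-93832120, plus strand: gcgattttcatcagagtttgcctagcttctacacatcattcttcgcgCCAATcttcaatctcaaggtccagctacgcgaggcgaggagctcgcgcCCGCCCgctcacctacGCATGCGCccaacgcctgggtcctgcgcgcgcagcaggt
Daxx, chr17:33909295-33909444, plus strand: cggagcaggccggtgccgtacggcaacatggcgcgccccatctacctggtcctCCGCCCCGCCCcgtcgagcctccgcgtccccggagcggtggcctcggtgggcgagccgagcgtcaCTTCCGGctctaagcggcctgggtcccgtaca

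The Atrx stretch held 2 copies of CCAAT and no GC box. The Morc3 stretch held CCAAT, a GC box and an NRF1 match, and the Daxx stretch held 2 GC boxes that shared 1 base and an ETS match. The 8 genes had 14 full windows, and some of those of Kdm3a, Pphln1 and Daxx overlap, so that 1 match can be counted in several windows. Of the 14, a GC box was in 8 (5 genes), against 35.7% of all 32851 windows, and CCAAT was in 6 (6 genes), against 37.4%. An ETS match was in 6 of the 14 (3 genes), against 8.86% of all windows, and an NRF1 match in 3 (3 genes), against 9.95%. ATGGCNGC (bound by YY1), which shared letters with a GC box in Daxx, was in 4 of the 14 (2 genes), against 6.52%. The cAMP response element, with the letters TGACGTCA, was in 0 of the 14 windows, against 1.79%. The basal promoter motif TATAAA was in 0 of them, against 13.6%. The windows of Atrx, Morc3 and the Daxx start shown held 11, 20 and 33 CpG dinucleotides, against a median of 7 over all windows. These matches describe letters in a window and are not evidence of binding.

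The libraries held 87421755 to 119078882 counts, and the 10 genes had between 3390 and 63066 counts in a library. The Treg label was matched by Foxp3 at 158 to 254 CPM (counts over the library total times 1e6) and by Il2ra, Ctla4, Ikzf2, Cd3e and Cd4, all detected in every library. Replicate 3 of Treg with WT Tconv stood apart, with all 7 red cell markers summing to 6155 CPM against 393 to 736 in the other libraries, and all 8 neutrophil markers summing to 1824 CPM against 41.4 to 226. The red cell sum ranged from 393 to 6155 CPM with WT Tconv and from 405 to 736 with HP1α KO Tconv, and the neutrophil sum from 41.4 to 1824 and from 79.2 to 226 CPM. The sum of 7 macrophage and monocyte markers ranged from 320.0 to 461 CPM with WT Tconv and from 369 to 376 CPM with HP1α KO Tconv. In the last list, Lyz2 was at 165 CPM in replicate 3 of the WT Tconv group against 7.21 to 39.0 elsewhere, whereas Ccr2, which T cells also express, was at 284 to 354 CPM in all libraries. Of the CD8 T cell markers, Cd8b1 was at 5.70 to 8.52 CPM and Cd8a at no more than 0.487 CPM. Among the markers of B, plasma, dendritic, NK and CD8 T cells, Flt3, Clec9a, Siglech, Mzb1 and Ncr1 were at 0 in at least 1 library. Replicate 2 of the HP1α KO Tconv group had 0.972% of its counts from the mitochondrial genome against 2.52% to 2.88% elsewhere, and the lowest Foxp3. The CPM of single genes in the comparisons below use library totals scaled by TMM, a factor that sets the bulk of genes level between libraries.

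Levels between genes were compared as CPM per kilobase of exon, over the 6 libraries. The length was that of all annotated exons of a gene together, such as 6.01 kb for Kdm4a, 10.33 for Kdm4b, 12.12 for Pphln1 and 14.54 for Kdm4c. A gene whose transcripts use only part of its exons is placed too low, so the order holds for this measure only. Without division by length Atrx was highest, at a mean of 573.7 CPM with WT Tconv against 190.5 for Kdm4a. Per kb, Kdm4a was the most abundant of the 10 at 31.7 ± 1.43 CPM per kb (SD, n = 6), at percentile 93.2 of the genes tested. Atrx followed at 24.6 ± 2.12, Morc3 at 20.7 ± 2.1 and Daxx at 17.3 ± 1.05 CPM per kb. The demethylases Kdm3b and Kdm3a lay at 10.3 ± 1.18 and 10.1 ± 0.445, and the HUSH reader Mphosph8 at 7.63 ± 0.706 CPM per kb. Kdm4c, at 5.51 ± 0.236, and Kdm4b, at 4.01 ± 0.347, were well under their relative Kdm4a, and Pphln1 was lowest at 3.73 ± 0.244 CPM per kb, at percentile 58.4. In this order, Atrx and Morc3, Morc3 and Daxx, Kdm3b and Kdm3a, and Kdm4b and Pphln1 had ranges over the 6 libraries that overlapped, and the other neighbors did not. The Kdm4a level was 1.29 times that of Atrx, its nearest neighbor.

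**Figure D1:**
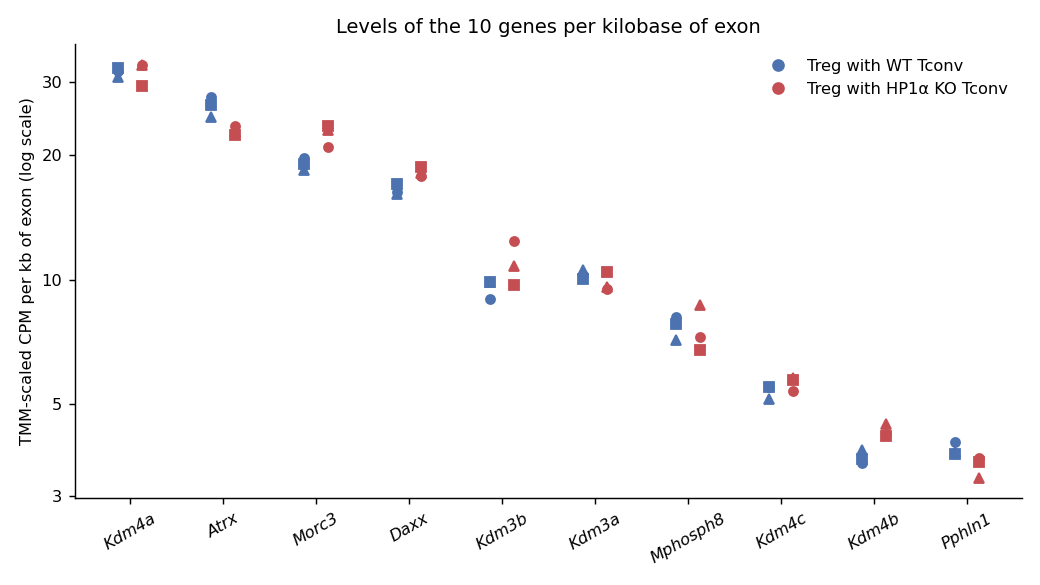
Levels of the 10 genes in each library, as TMM-scaled CPM per kilobase of exon on a log axis, ordered by their mean; blue points are Treg with WT Tconv, red points are Treg with HP1α KO Tconv, and point shapes are replicates as in the plots by library. Kdm4a sits highest at a mean of 31.7 and Pphln1 lowest at 3.73.

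The comparison asked whether any of these genes differed in Treg according to which Tconv they had been transferred with. None of the 10 passed the test of edgeR after Benjamini-Hochberg adjustment over all genes, with adjusted p-values from 0.224 to 0.991, and 0 of the 18321 genes tested (0%) did. The groups did not overlap for 5 of the 10, of which Kdm4b, Daxx and Morc3 were higher and Atrx and Pphln1 lower with HP1α KO Tconv. Over all genes the groups did not overlap for 23.0%, 11.5% being higher and 11.6% lower. Without replicate 2 of the HP1α KO Tconv group, 8 of the 10 did not overlap, against 37.4% of all genes, and without replicate 1 of that group 6 did not, against 32.6%. Before adjustment, 4 of the 10 had p under 0.05 (14.5% of all genes), 3 of them higher (6.98%) and 1 lower (7.52%). By DESeq2, 0 of the 10 passed, with adjusted p-values from 0.106 to 0.997, while 4.35% of the 12097 genes that it gave an adjusted p-value did, 526 genes in number. Log2 fold changes of the 10 ranged from -0.20 to 0.24 with a median of 0.03, against a median of -0.01 over all genes. Without single libraries the median of the 10 by edgeR moved between 0.0059, without replicate 3 of the WT Tconv group, and 0.063, without replicate 1 of the HP1α KO Tconv group. The median absolute log2 fold change of the 10 was 0.14 against 0.17 over all genes. All genes include less precisely measured ones, with an SE up to 2.85 against at most 0.104 among the 10. These medians are therefore not matched for noise. These are whole sorted populations, in which fewer cells of a type and less RNA per cell cannot be told apart.

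**Figure D2:**
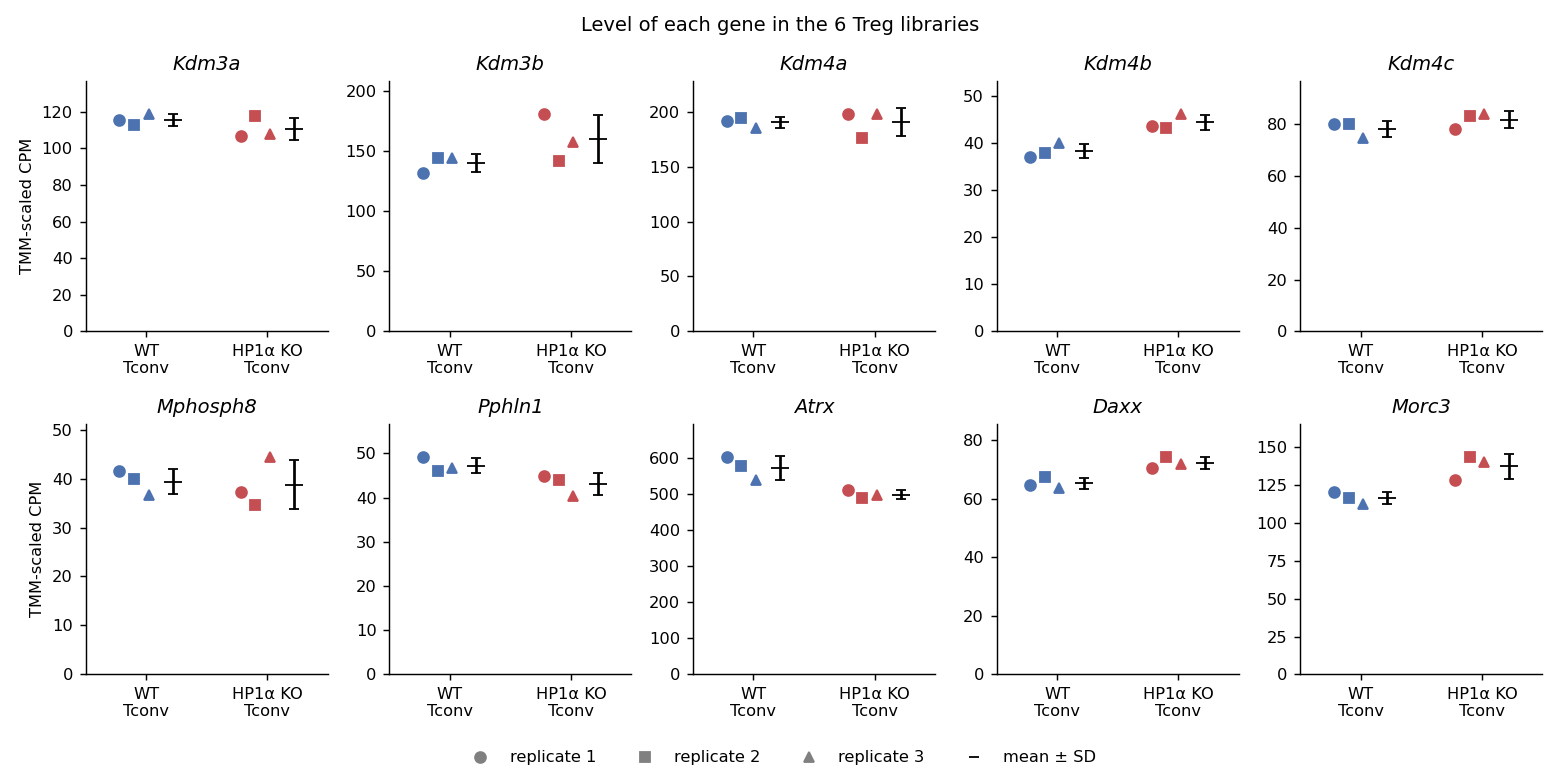
TMM-scaled CPM of each gene in the 6 libraries, each panel on its own axis from 0; blue points are Treg with WT Tconv, red points Treg with HP1α KO Tconv, shapes are replicates, and bars are mean ± SD (n = 3). The groups are separated for Kdm4b, Pphln1, Atrx, Daxx and Morc3 and overlap for the others.

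Among the 5 H3K9 demethylases, Kdm4b had the largest absolute log2 fold change with all 6 libraries, but Kdm3b exceeded it in 3 of the 6 edgeR fits that left out a library. These were without replicate 2 of the WT Tconv group (0.23 against 0.22), and without replicate 2 (0.27 against 0.23) or replicate 3 (0.20 against 0.18) of the HP1α KO Tconv group. Kdm4b (ENSMUSG00000024201, chr17:56632913-56714338, plus strand; positions of genes are on GRCm39) encodes an enzyme that removes higher methylation states of H3K9. It was measured at 37.2, 38.0 and 40.0 CPM in replicates 1, 2 and 3 of Treg with WT Tconv, and at 43.7, 43.3 and 46.3 CPM with HP1α KO Tconv. Every library with HP1α KO Tconv lay above every library with WT Tconv. The means were 38.4 ± 1.44 and 44.4 ± 1.64 CPM (SD, n = 3 each), a log2 fold change of 0.21 (SE 0.0679) at an adjusted p of 0.241 in edgeR, by which it did not pass.

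Kdm4a (ENSMUSG00000033326, chr4:117994154-118037251, minus strand), the most abundant enzyme of this family here, was at 192.0, 194.6 and 185.0 CPM with WT Tconv and at 198.5, 176.2 and 197.8 CPM with HP1α KO Tconv. The groups overlapped, since replicate 2 of the latter was the lowest of all 6 libraries. The log2 fold change of Kdm4a was 0.00 with a 95% interval from -0.16 to 0.16, which leaves room for a change of that size in either direction. Kdm4c (ENSMUSG00000028397, chr4:74160734-74324757, plus strand), the remaining KDM4 gene of the 5, ranged from 74.8 to 80.2 CPM with WT Tconv and from 78.1 to 84.2 CPM with HP1α KO Tconv. Its log2 fold change was 0.06 with an interval from -0.09 to 0.21, and the groups overlapped. By edgeR it was 0.03 without replicate 3 of the WT Tconv group and 0.11 without replicate 1 of the HP1α KO Tconv group.

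Kdm3a and Kdm3b encode closely related enzymes that remove lower methylation states of H3K9. Kdm3b (ENSMUSG00000038773) was at 131.7, 144.3 and 144.5 CPM with WT Tconv and at 181.0, 141.7 and 157.6 CPM with HP1α KO Tconv. Replicate 2 of the latter group lay inside the range of the WT Tconv libraries, and the other 2 lay above it. The log2 fold change of Kdm3b was 0.19 (SE 0.096), with an adjusted p of 0.408 in edgeR. It was 0.27 without that replicate and 0.11 without replicate 1 of the same group. Kdm3a (ENSMUSG00000053470, chr6:71565956-71610472, minus strand) was at 115.3, 112.7 and 119.0 CPM with WT Tconv and at 106.6, 117.5 and 108.1 CPM with HP1α KO Tconv. Here replicate 2 was the one library with HP1α KO Tconv that reached the WT Tconv range, and the log2 fold change was -0.06 with an interval from -0.21 to 0.09. Without replicate 2 the log2 fold change of Kdm3a was -0.11 and without replicate 1 it was -0.02, with no adjusted p-value under 0.05. Replicate 2 is the library with 0.972% mitochondrial counts, and the part of that in these values was not tested.

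HUSH is built from MPP8, which is encoded by Mphosph8 and binds methylated H3K9, periphilin, which is encoded by Pphln1 and binds RNA, and TASOR. Pphln1 (ENSMUSG00000036167, chr15:93296209-93389810, plus strand) was at 49.2, 45.9 and 46.6 CPM with WT Tconv and at 45.0, 44.0 and 40.3 CPM with HP1α KO Tconv. The groups did not overlap, although replicates 2 of WT Tconv and 1 of HP1α KO Tconv lay next to each other. The means were 47.2 ± 1.73 and 43.1 ± 2.45 CPM (SD, n = 3 each), with a log2 fold change of -0.13 (SE 0.0719) and an adjusted p of 0.448 in edgeR. Its log2 fold change was -0.086 without replicate 3 of the HP1α KO Tconv group and -0.089 without replicate 1 of the WT Tconv group.

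Mphosph8 (ENSMUSG00000079184, chr14:56905666-56935542, plus strand) was at 41.6, 39.9 and 36.6 CPM with WT Tconv and at 37.3, 34.6 and 44.4 CPM with HP1α KO Tconv. The library at 44.4 CPM, replicate 3, was the highest of the 6 and replicate 2 of the same group the lowest. The log2 fold change was -0.02 with an interval from -0.26 to 0.22, the widest of the 10. It turned to 0.05 without replicate 2 of the HP1α KO Tconv group and was -0.13 without replicate 3 of that group. In the annotation, 19.4% of the exon bases of Mphosph8 lie opposite exons of the lncRNA Gm16973, and 11.2% of those of Daxx lie opposite BC051226. The reads came from a stranded kit but the counting is not stated to use strand, so counts of these overlaps are uncertain. Gm16973 was at 5.27 ± 0.264 CPM with WT Tconv and 5.69 ± 1.19 with HP1α KO Tconv, and BC051226 at 1.75 ± 0.0748 and 2.11 ± 0.339 CPM (SD, n = 3 each), both far under the gene that they face. Gm16973 was highest, at 7.045 CPM, in replicate 3 of the HP1α KO Tconv group, where Mphosph8 was also highest. BC051226, like Daxx, was higher in every library with HP1α KO Tconv (1.88 to 2.502 against 1.665 to 1.802 CPM). The part of the overlaps in these values was not tested. For the remaining genes, bases facing an antisense exon made up at most 2.19% of the exon length, and 0 of the 10 shared exon bases with a gene on the same strand.

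Atrx, Daxx and Morc3 were separated between the groups of libraries, Atrx in one direction and the others in the opposite one. Atrx (ENSMUSG00000031229, chrX:104841131-104973014, minus strand), which encodes the chromatin remodeler that works with DAXX, was at 604.3, 578.0 and 538.8 CPM with WT Tconv. With HP1α KO Tconv it was at 513.0, 489.0 and 497.0 CPM. Every library with HP1α KO Tconv was below every one with WT Tconv, and the smallest gap was to replicate 3 of the WT Tconv group, the library rich in red cell and neutrophil RNA. The means were 573.7 ± 33.0 and 499.7 ± 12.2 CPM (SD, n = 3 each), a log2 fold change of -0.20 (SE 0.0703), an interval from -0.36 to -0.04 and an adjusted p of 0.266 in edgeR. The log2 fold change of Atrx was -0.24 with replicate 3 of the WT Tconv group left out and -0.15 with replicate 1 of that group left out.

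Daxx (ENSMUSG00000002307, chr17:34128384-34134564, plus strand) encodes the H3.3 chaperone that partners ATRX. It was at 64.7, 67.3 and 63.7 CPM with WT Tconv and at 70.6, 74.3 and 71.8 CPM with HP1α KO Tconv. All 3 libraries of the latter were higher. The means were 65.3 ± 1.86 and 72.2 ± 1.9 CPM (SD, n = 3 each), with a log2 fold change of 0.15 (SE 0.0619) and an adjusted p of 0.332 in edgeR.

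Morc3 (ENSMUSG00000039456, chr16:93629009-93672979, plus strand), the nuclear ATPase of PML bodies, had the smallest p-value of the 10. It was at 120.3, 116.6 and 112.3 CPM with WT Tconv and at 128.1, 143.7 and 140.3 CPM with HP1α KO Tconv. All 3 libraries with HP1α KO Tconv were higher, replicate 1 being nearest to the other group. The means were 116.4 ± 4.01 and 137.3 ± 8.22 CPM (SD, n = 3 each), or 18.0% higher in the fit, with a log2 fold change of 0.24 (SE 0.0693) and an interval from 0.08 to 0.40. The edgeR p-value was 0.00833 before adjustment and 0.224 after it, and the DESeq2 adjusted p-value was 0.106.

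**Figure D3:**
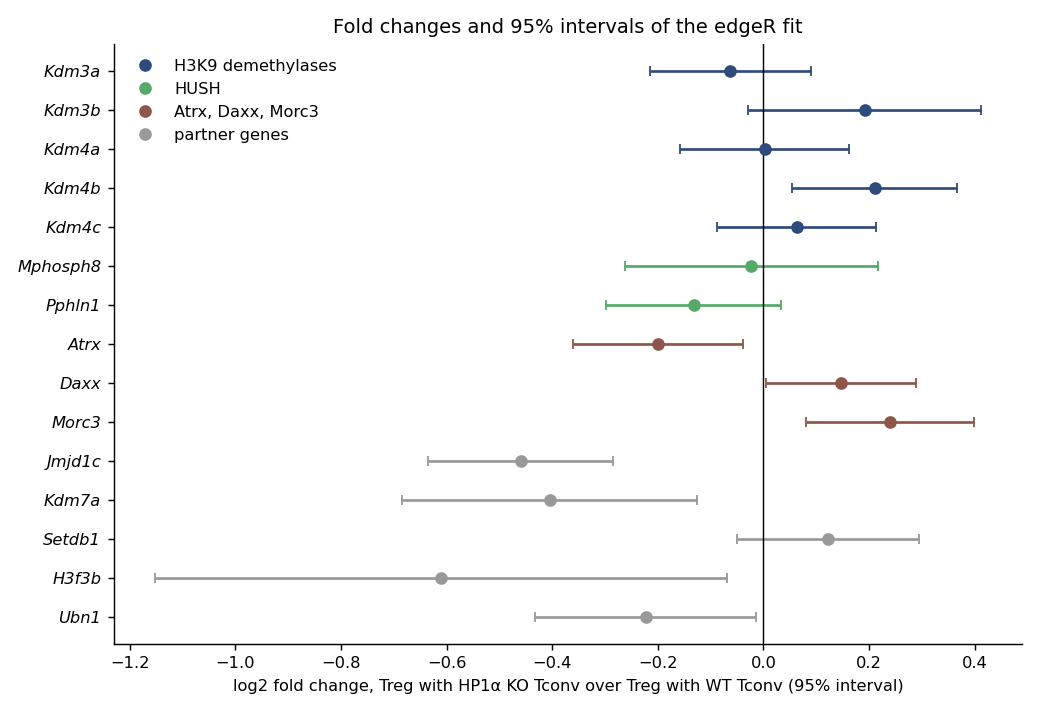
Log2 fold changes (HP1α KO Tconv group over WT Tconv group) of the 10 genes and of 5 named partner genes, with 95% intervals from the edgeR fit before adjustment for the number of genes; colors mark the gene groups. The intervals of Kdm4b, Atrx, Daxx and Morc3 and of the partners Jmjd1c, Kdm7a, H3f3b and Ubn1 do not reach 0, and none of these genes passed in edgeR after adjustment.

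The call for 3 of the 10 depended on single libraries when DESeq2 was used. Without replicate 1 of the HP1α KO Tconv group, Morc3 passed with a log2 fold change of 0.29 and an adjusted p-value of 0.0192, where 5.02% of the 13579 genes given an adjusted p-value passed. Without replicate 2 of that group, Morc3 (0.20, adjusted p-value 0.0486), Kdm3b (0.27, 0.0358) and Kdm4b (0.22, 0.0358) passed by DESeq2, and 11.3% of the 12548 genes given an adjusted p-value did. Over all 23 alternatives the adjusted p-values spanned 0.0192 to 0.448 for Morc3, 0.0358 to 0.683 for Kdm3b and 0.0358 to 0.483 for Kdm4b. By edgeR or limma-voom, 0 of the 10 passed in any of the 15 alternatives. The directions of Kdm3a, Kdm3b, Kdm4b, Kdm4c, Pphln1, Atrx, Daxx and Morc3 were the same in all 23, whereas those of Kdm4a and Mphosph8 were not.

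**Figure D4:**
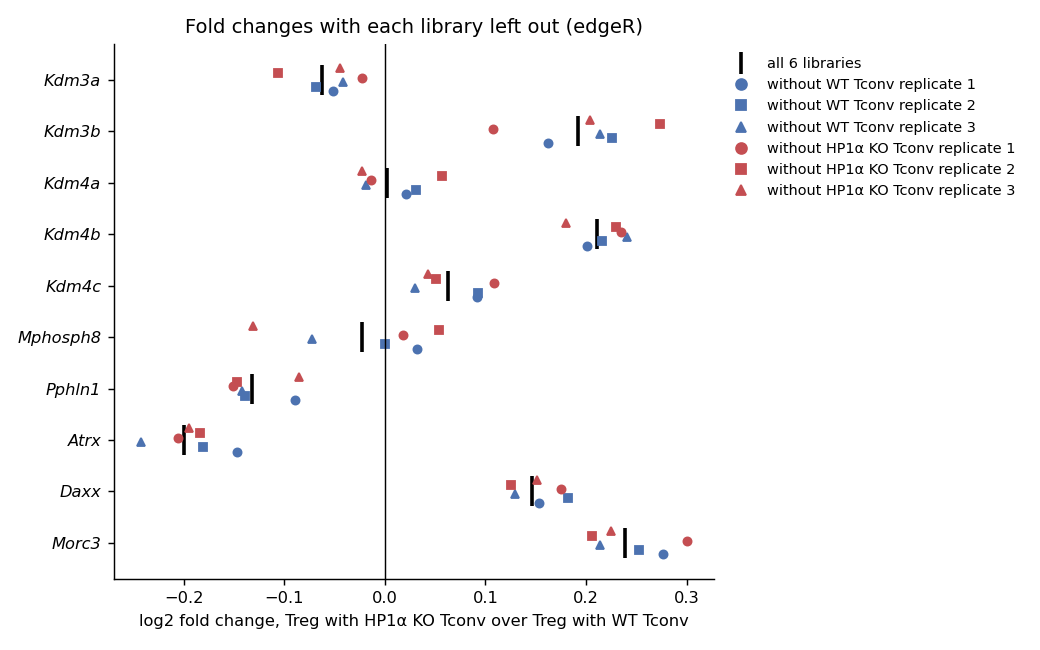
Log2 fold changes by edgeR with all 6 libraries (black bars) and with each library left out in turn (blue, a library with WT Tconv left out; red, one with HP1α KO Tconv left out; shapes are replicates). The values of Atrx stay between -0.24 and -0.15 and those of Morc3 between 0.21 and 0.30, while Mphosph8 and Kdm4a fall on both sides of 0.

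Ratios of the counts of 2 genes within a library do not depend on how libraries are scaled. They were chosen after the values had been seen and are given as a description. An exact permutation test was run on each ratio. Its smallest possible p-value with 3 against 3 libraries is 0.1, so none could fall under 0.05. The ratio of Morc3 to Atrx was 0.199, 0.202 and 0.208 in Treg with WT Tconv and 0.250, 0.294 and 0.282 with HP1α KO Tconv. The groups were separated, with means of 0.203 ± 0.0048 and 0.275 ± 0.0229 (SD, n = 3 each). The ratio of Daxx to Atrx was 0.107, 0.116 and 0.118 with WT Tconv and 0.138, 0.152 and 0.144 with HP1α KO Tconv, again with no overlap. Both separations were fixed in advance by the values of the single genes. Morc3 and Daxx were higher, and Atrx lower, in every library with HP1α KO Tconv, so these ratios add no further result. The ratio of Kdm4b to Kdm4a was 0.202 ± 0.0126 and 0.233 ± 0.0127, and its lowest library with HP1α KO Tconv, at 0.220, lay just above the highest with WT Tconv, at 0.216. The ratio of Kdm3b to Kdm3a overlapped, with 1.21 ± 0.0698 and 1.45 ± 0.246, since replicate 2 of the HP1α KO Tconv group was at 1.21. The log2 difference of this ratio was 0.25, and it was 0.38 without that replicate and 0.13 without replicate 1 of the same group. The ratio of Pphln1 to Mphosph8 overlapped as well, with 1.20 ± 0.0632 and 1.13 ± 0.194. Its log2 difference was -0.10, and it was 0.045 without replicate 3 of the HP1α KO Tconv group.

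**Figure D5:**
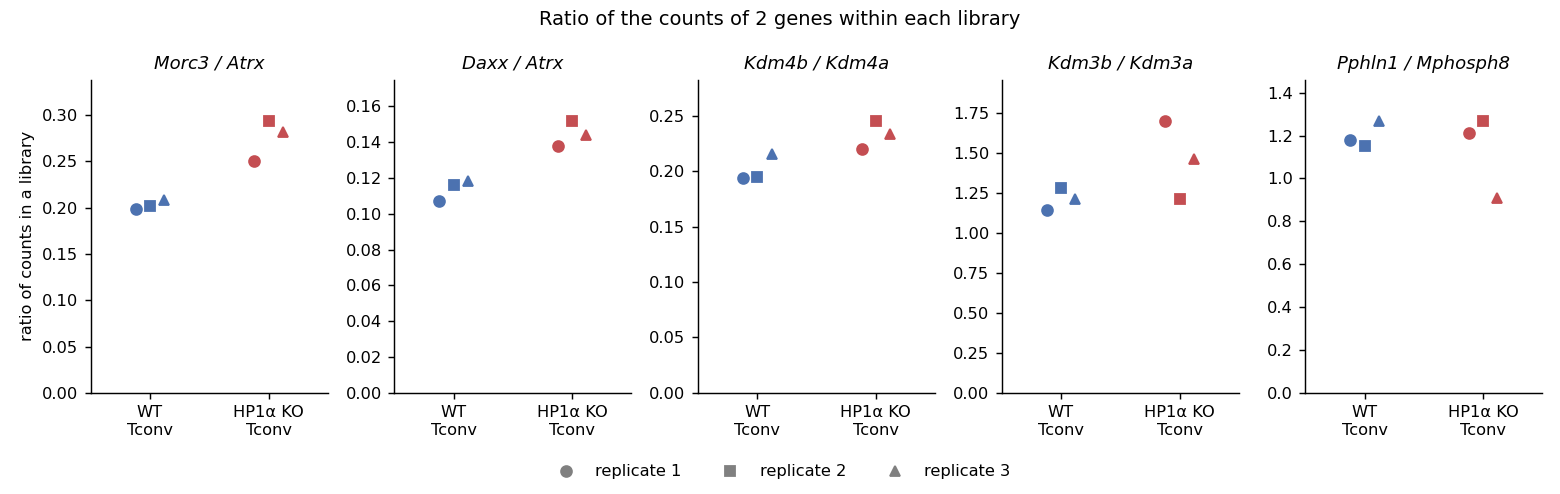
Ratio of the counts of 2 genes in each of the 6 libraries, each panel on its own axis from 0, with blue points for Treg with WT Tconv and red points for Treg with HP1α KO Tconv; shapes are replicates. Morc3 to Atrx, Daxx to Atrx and Kdm4b to Kdm4a are separated between the groups, and the other 2 ratios overlap. For the ratios to Atrx the separation follows from that of the single genes.

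Partner genes of the same pathways were described from lists of 29 genes, of which 25 were tested and 0 passed by edgeR. By DESeq2, 3 of the 25 passed, where 4.35% of all genes given an adjusted p-value did. Of the other 8 H3K9 demethylases listed, 7 were tested, and 2 had p under 0.05 before adjustment (14.5% of all genes), both lower with HP1α KO Tconv (7.52%), with a median log2 fold change of -0.05 over the list. Jmjd1c, which encodes a KDM3 family protein, was at 379.3, 389.9 and 423.1 CPM with WT Tconv and at 304.9, 292.6 and 269.4 CPM with HP1α KO Tconv. The groups were separated, with a log2 fold change of -0.46 (SE 0.0765) and adjusted p-values of 0.209 by edgeR and 0.000354 by DESeq2. Jmjd1c passed by DESeq2 with any 1 of the 6 libraries left out, and by edgeR without the count filter (0.036), and its adjusted p-values spanned 3.04e-05 to 0.437 across 23 alternatives. Kdm7a, which encodes a demethylase of H3K9 and H3K27, was at 166.4, 177.1 and 190.1 CPM with WT Tconv and at 146.8, 109.3 and 147.0 CPM with HP1α KO Tconv. Its groups did not overlap, and replicate 2 of the HP1α KO Tconv group was the lowest. The log2 fold change of Kdm7a was -0.40 and its adjusted p-values were 0.23 by edgeR and 0.0355 by DESeq2, with a log2 fold change of -0.28 without that replicate. Leaving out replicate 1, 2 or 3 of the WT Tconv group ended the DESeq2 call of Kdm7a (adjusted p-values 0.103, 0.155 and 0.205). In these fits the DESeq2 log2 fold changes of Kdm7a were -0.45, -0.41 and -0.36, against -0.41 with all libraries. Kdm1a, which encodes the demethylase LSD1, was at 102.2 ± 2.05 and 102.5 ± 5.73 CPM (SD, n = 3 each).

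Of the 8 HUSH partners listed, 7 were tested, 0 had p under 0.05 before adjustment (14.5% of all genes), and their median log2 fold change was 0.03. Tasor, which encodes the scaffold of HUSH, was at 92.33, 87.06 and 75.02 CPM with WT Tconv and at 93.24, 81.71 and 106.0 CPM with HP1α KO Tconv. Morc2a, an ATPase recruited by HUSH, was at 61.9 ± 1.95 and 61.3 ± 0.781 CPM (SD, n = 3 each), and the groups overlapped for both genes. Setdb1, the H3K9 methyltransferase that works with HUSH, had the smallest p-value of the list. It was at 76.5, 73.7 and 69.8 CPM with WT Tconv and at 74.0, 80.7 and 84.9 CPM with HP1α KO Tconv, with overlap, a log2 fold change of 0.12 and an adjusted p of 0.498 in edgeR. For Setdb1 the log2 fold change was 0.19 without replicate 1 of the HP1α KO Tconv group and 0.08 without replicate 3 of that group.

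Of the 13 partners of ATRX, DAXX and MORC3 listed, 11 were tested, and 2 had p under 0.05 before adjustment (14.5% of all genes), both lower with HP1α KO Tconv (7.52%), with a median log2 fold change of -0.08. H3f3b, which encodes the H3.3 that DAXX deposits, was at 1053, 1228 and 1197 CPM with WT Tconv and at 925.6, 512.8 and 839.7 CPM with HP1α KO Tconv. All 3 libraries with HP1α KO Tconv were lower, and replicate 2 was far below the other 2. The log2 fold change of H3f3b was -0.61 (SE 0.222), with adjusted p-values of 0.3 by edgeR and 0.0171 by DESeq2, and it was -0.39 without replicate 2. The DESeq2 call of H3f3b was lost without replicate 1, 2 or 3 of the WT Tconv group (adjusted p-values 0.0928, 0.172 and 0.138). It was also lost without replicate 3 of the HP1α KO Tconv group (0.232). In these fits, in that order, the DESeq2 log2 fold changes of H3f3b were -0.68, -0.57, -0.59 and -0.69, against -0.61 with all libraries. Its adjusted p-values spanned 0.000938 to 0.543 across 23 alternatives, and those of Kdm7a spanned 0.00792 to 0.437. H3f3a, which encodes the same protein, was at 377.2, 375.7 and 494.1 CPM with WT Tconv and at 351.7, 391.6 and 343.9 CPM with HP1α KO Tconv. The groups overlapped, and replicate 3 of the WT Tconv group, the library with the red cell and neutrophil markers, was the one far above the rest. Ubn1, a subunit of the HIRA chaperone complex that deposits H3.3 at active genes, was at 197.3, 205.4 and 199.4 CPM with WT Tconv and at 182.4, 148.4 and 185.2 CPM with HP1α KO Tconv. The groups did not overlap, the log2 fold change of Ubn1 was -0.22 with an adjusted p of 0.319 in edgeR, and it was -0.13 without replicate 2 of the HP1α KO Tconv group. The lower H3f3b, Ubn1 and Kdm7a of that replicate accompany its 0.972% of mitochondrial counts, whose part in them was not tested. Pml, which encodes the organizer of PML bodies, was at 55.3, 58.4 and 65.1 CPM with WT Tconv and at 61.4, 42.0 and 65.3 CPM with HP1α KO Tconv, with only replicate 2 of the latter below the range of the former. Sp100, another component of these bodies, was at 258.2, 277.3 and 229.3 CPM and at 282.1, 229.7 and 301.2 CPM in the same order. Its groups overlapped through replicate 2 of the HP1α KO Tconv group, the other 2 libraries of which lay above all those with WT Tconv.

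The genes whose levels ran most like those of a member over the 6 libraries were ranked by the Pearson correlation of log2 CPM among 8848 genes with a mean of at least 10 CPM. The 6 libraries share their split into groups and their depths, so these values are a description. For Morc3 they were Lamb3 (0.997), Cenpo (0.996) and Vps4a (0.993). For Kdm4b they included Smg9 (0.987) and Scaf1 (0.985), and for Pphln1 they were Twsg1 (0.994), Arnt2 (0.993) and Sec63 (0.992).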

How the data were processed

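Total RNA libraries (TruSeq Stranded Total RNA, 150 bp paired reads) of splenic Treg were processed by the authors, per the study's methods, with the nf-core RNA-seq pipeline: reads were trimmed, aligned with STAR to GRCm39 with an Ensembl annotation, and quantified with Salmon, which shares ambiguous reads between genes by a model. The deposited table gives estimated counts for each gene as whole numbers, with no normalization; 0 per-sample columns were left unused, and the 64 genes without a symbol were kept under their identifiers.

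The 10 members and the partner and marker lists were chosen with earlier results of these data known. Groups came from the labels. edgeR 4.0.16 in R 4.3.3 gave quasi-likelihood F-tests (TMM scaling, filterByExpr, robust fit, group as the sole term), adjusted by Benjamini-Hochberg over 18321 genes. The SE of a log2 fold change is its size divided by the root of F, and fold changes are the HP1α KO Tconv group over the WT Tconv group. CPM are counts over the TMM-scaled library total; marker sums and mitochondrial percentages use the unscaled total. Exon lengths and positions were read from a GENCODE annotation of the same assembly, and promoters from RefSeq on GRCm38.p6. DESeq2 1.42.0 and limma 3.58.1 (voom) were alternatives. The fits were tested on simulated data. Library totals were 87421755 to 119078882 counts, without molecular identifiers. No replicate pair agreed within sampling noise, and each library counted as 1.

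Named were the 10 members, partner genes with an unadjusted p-value under 0.05 (otherwise the gene with the smallest p-value of a list), and, for the member with the smallest p-value and the member of each role with the largest absolute log2 fold change, the 3 genes of at least 10 CPM with the highest Pearson r. Further partner genes and the within-library ratios were chosen after their values had been seen. A gene that this rule also named and a marker gene are not reported here.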

Additional observations from a re-analysis of the deposited data

How the results depend on the processing

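The count of all genes passing was 0 by edgeR and became 1 with upper quartile scaling, 38 with no filter beyond 1 count, 526 with DESeq2 and 698 with DESeq2 on the filtered genes, the last chosen after the data had been seen, as was DESeq2 without each library in turn. Leaving out each library in turn, by either tool, gave 0 to 1413 genes, 0 to 3 of the 10 members passing, and 5 to 8 members whose groups did not overlap. The median log2 fold change of the members, 0.033 with all libraries, was 0.070 with total counts only and ranged from 0.0016 (DESeq2 without replicate 3 of the WT Tconv group) to 0.063 with each library left out. Kdm4a reversed to -0.0016 with RLE scaling, with at least 10 counts in every library and with DESeq2 on the filtered genes, to -0.00079 with DESeq2, and ranged from -0.029 to 0.057 with each library left out. Mphosph8 reversed to 0.014 with total counts only and ranged from -0.13 to 0.054 with each library left out. The log2 ratio of Pphln1 to Mphosph8 ranged from -0.20 to 0.045 with each library left out. The cause of these moves was not tested. With the replicate number as a block (replicate block), 1 gene and 0 members passed; the deviations of same-numbered libraries correlated at -0.0775, 0.150 and 0.109, so the numbers were not taken as pairs.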
